A study of Mus musculus with 14 samples.

Results

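The genes described here are 10 mouse genes of the major histocompatibility complex (MHC) class I presentation pathway, chosen as a fixed list by symbol among the 32285 genes counted. They were H2-K1, H2-D1, B2m, Tap1, Tap2, Tapbp, Psmb8, Psmb9, Psmb10 and Nlrc5, and all 10 had UMIs (unique molecular identifiers, each counted as 1 captured RNA molecule) in each of the 7 RNA libraries. White nodules came from 7 cKO mice, which carry floxed Eif3e alleles (Eif3e fl/fl) and Cγ1Cre (Cre expressed from the Ighg1 locus) on a C57BL/6J background. By the study's account mice 29, 31, 32 and 34 also carried a Cre-dependent YFP reporter at Rosa26, which is not listed for mice 27, 30 and 33. The protein product of Eif3e is part of eIF3, which brings ribosomes to mRNA, and Cγ1Cre is active in activated B cells. The study found no YFP in B and CD4 T cells of such tumors and eIF3e protein in both, so the B clones cannot be taken as Eif3e-deleted cells. In the RNA counts, Eif3e was 169 to 243 CPM (UMIs per 1000000 UMIs of a cell class) in the 5 B clones, 117 to 171 CPM in T-like cells and 113 to 159 CPM in stromal cells of the same nodules. These UMIs are counted for the whole gene, so they cannot show whether the floxed segment was deleted. In 5 mice the B cell receptor (BCR) was profiled: mouse 27, a liver nodule at 12 mo of age; mouse 29, a lung nodule at 12 mo; mouse 31, taken from the spleen at 13 mo; mouse 33, from the thymus at 16 mo; and mouse 34, from lung and thymus at 9 mo. In 2 mice it was the T cell receptor (TCR), with a liver nodule at 14 mo from mouse 30 and a spleen nodule at 12 mo from mouse 32. The sample of mouse 27 was, by the same account, a secondary tumor grown in a Rag2-/- recipient, an animal without B and T cells of its own and without the cKO alleles. Its stromal and macrophage-like cells can therefore come from another genotype than its clone. The age listed for mouse 27 need not be that of this recipient. No healthy or Cre-negative nodule was analysed here, so each comparison is between cell classes of a nodule or between nodules, and site and mouse cannot be told apart.

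Class I molecules show peptides from inside the cell to CD8 T cells. H2-K1 and H2-D1 encode the classical heavy chains of these mice, and B2m encodes β2-microglobulin, the light chain that every class I heavy chain needs to reach the surface. Psmb8, Psmb9 and Psmb10 encode the catalytic subunits of the immunoproteasome, which replace the constitutive subunits Psmb5, Psmb6 and Psmb7 after interferon γ and cut proteins into peptides. Tap1 and Tap2 form the transporter that moves peptides into the endoplasmic reticulum, and Tapbp (tapasin) holds empty class I molecules beside it. Nlrc5 encodes the transactivator of class I genes.

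In the RefSeq annotation of GRCm38.p6, the build family named in the labels, 7 of the 10 genes lie on chromosome 17. H2-K1 spans chr17:33996012-34000619, H2-D1 chr17:35263094-35267497 and Tapbp chr17:33919478-33929290. Psmb9 (chr17:34182030-34187330), Tap1 (chr17:34187556-34197225), Psmb8 (chr17:34198195-34201454) and Tap2 (chr17:34204479-34216321) follow each other without another member between them. B2m lies at chr2:122147687-122153082, Psmb10 at chr8:105935728-105938392 and Nlrc5 at chr8:94434335-94527272. RefSeq promoter entries were matched for 8 of 10 members, and none is given here for Tap2 or Nlrc5. The stretches upstream of the start site are shown for a heavy chain and for B2m, because these are the members that were lower in B clones than in T-like cells, and for Psmb9 and Tap1, because these genes start 226 bases apart in opposite directions and share the stretch between them. Capitals mark matches, on either strand, to GGGGATT (as in κB sites), TTTCACT (as in the core of an interferon-stimulated response element), TGACG (the core of a CRE or X2 box) and CCAAT (the CCAAT box).
H2-D1, chr17:35262844-35263093, plus strand, 5′ to 3′: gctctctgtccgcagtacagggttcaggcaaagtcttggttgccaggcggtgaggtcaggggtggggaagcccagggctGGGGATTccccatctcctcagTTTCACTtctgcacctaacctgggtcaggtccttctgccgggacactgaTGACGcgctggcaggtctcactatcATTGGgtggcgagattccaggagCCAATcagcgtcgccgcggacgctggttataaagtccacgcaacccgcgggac
B2m, chr2:122147437-122147686, plus strand, 5′ to 3′: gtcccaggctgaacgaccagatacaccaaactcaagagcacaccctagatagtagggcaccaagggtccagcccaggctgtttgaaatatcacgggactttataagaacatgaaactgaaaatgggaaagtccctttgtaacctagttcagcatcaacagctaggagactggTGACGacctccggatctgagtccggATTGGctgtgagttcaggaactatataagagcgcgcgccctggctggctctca
Psmb9 to Tap1, chr17:34187331-34187555, plus strand, 5′ to 3′: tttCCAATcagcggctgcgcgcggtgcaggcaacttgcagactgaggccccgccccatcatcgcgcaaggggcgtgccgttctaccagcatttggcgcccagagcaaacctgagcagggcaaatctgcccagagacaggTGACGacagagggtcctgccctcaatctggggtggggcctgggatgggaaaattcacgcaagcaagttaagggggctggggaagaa
The H2-K1 entry lies within the annotated span of that gene given above, not upstream of it, and is not printed. Its first 250 bases aligned to those of the H2-D1 entry over 177 positions with 91.0% identity. GGGGATT was found in 2 of the 8 entries (H2-K1 and H2-D1) and in 2.78% of 27025 promoters, and TTTCACT in 2 of 8 and in 3.81% of promoters. TGACG was found in 5 of 8 and in 17.9% of promoters, and CCAAT in 6 of 8 and in 34.5%. Both tallies count the single match in the stretch between Psmb9 and Tap1 once for each of these genes. These are matches of exact letters, not measured binding. Variant forms of these elements were not searched for, so a stretch without capitals, in B2m for example, can still hold one. The 2 entries with GGGGATT and with TTTCACT are H2-K1 and H2-D1, which align to each other and are not independent cases. H2-K1 and H2-D1 are also alike in their transcripts, so how reads shared between them or with other class I genes were counted could move UMIs between them.

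UMIs were summed per mouse and cell class and are given as CPM of that sum. Clone cells were those whose contigs held the commonest heavy (or beta) chain of the nodule, or the light (or alpha) chain most often paired with it. B clones of mice 27, 29, 31, 33 and 34 held 1782, 323, 3974, 1084 and 1416 cells, and T clones of mice 30 and 32 held 2107 and 4868. Non-clonal T-like cells numbered 394 to 5125 per mouse, and in the TCR mice all of them carried a called TCR other than that of the clone. B-like cells with another called BCR numbered 24 to 41 in the 4 BCR mice other than mouse 27. Stromal cells (fibroblast-like and endothelial-like cells together) numbered 49 to 3445 in the BCR mice. The libraries held 19264039 to 123456962 UMIs, 75503 of 77442 cells passed the limits on quality, and 3129 barcodes occurred in more than 1 library.

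Marker genes followed the labels of the classes. All 7 B cell markers were detected in B clones, with summed levels of 1663 to 3508 CPM, while the 10 T cell markers summed to 30.8 to 136 CPM. In T clones the T cell markers summed to 2675 and 4118 CPM and the B cell markers to 12.0 and 98.3 CPM. Non-clonal T-like cells of the BCR mice held 1985 to 3809 CPM of T cell and 61.9 to 245 CPM of B cell markers. They also held 84.2 to 350 CPM of natural killer (NK) cell markers, against 2.05 to 77.9 CPM in B clones. No cluster was named for NK cells, so the T-like class can hold some. Stromal cells of these mice held 233 to 4728 CPM of the 7 fibroblast and 496 to 3359 CPM of the 7 endothelial markers, but also 133 to 1771 CPM of B cell markers, with the highest value in mouse 34. Neutrophil markers reached 946 and 2305 CPM in the T clones and 569 CPM in the B clone of mouse 29. Median depth per cell was 9367 to 13763 UMIs in B clones, 1189 to 3504 in non-clonal T-like cells of the same mice and 3785 to 5576 in their stromal cells. The part of these levels and depths in the results was not tested beyond the alternatives named with each result. CPM is a share of a cell's RNA, so less of a transcript and more of all other RNA in a cell cannot be told apart.

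**Figure D1:**
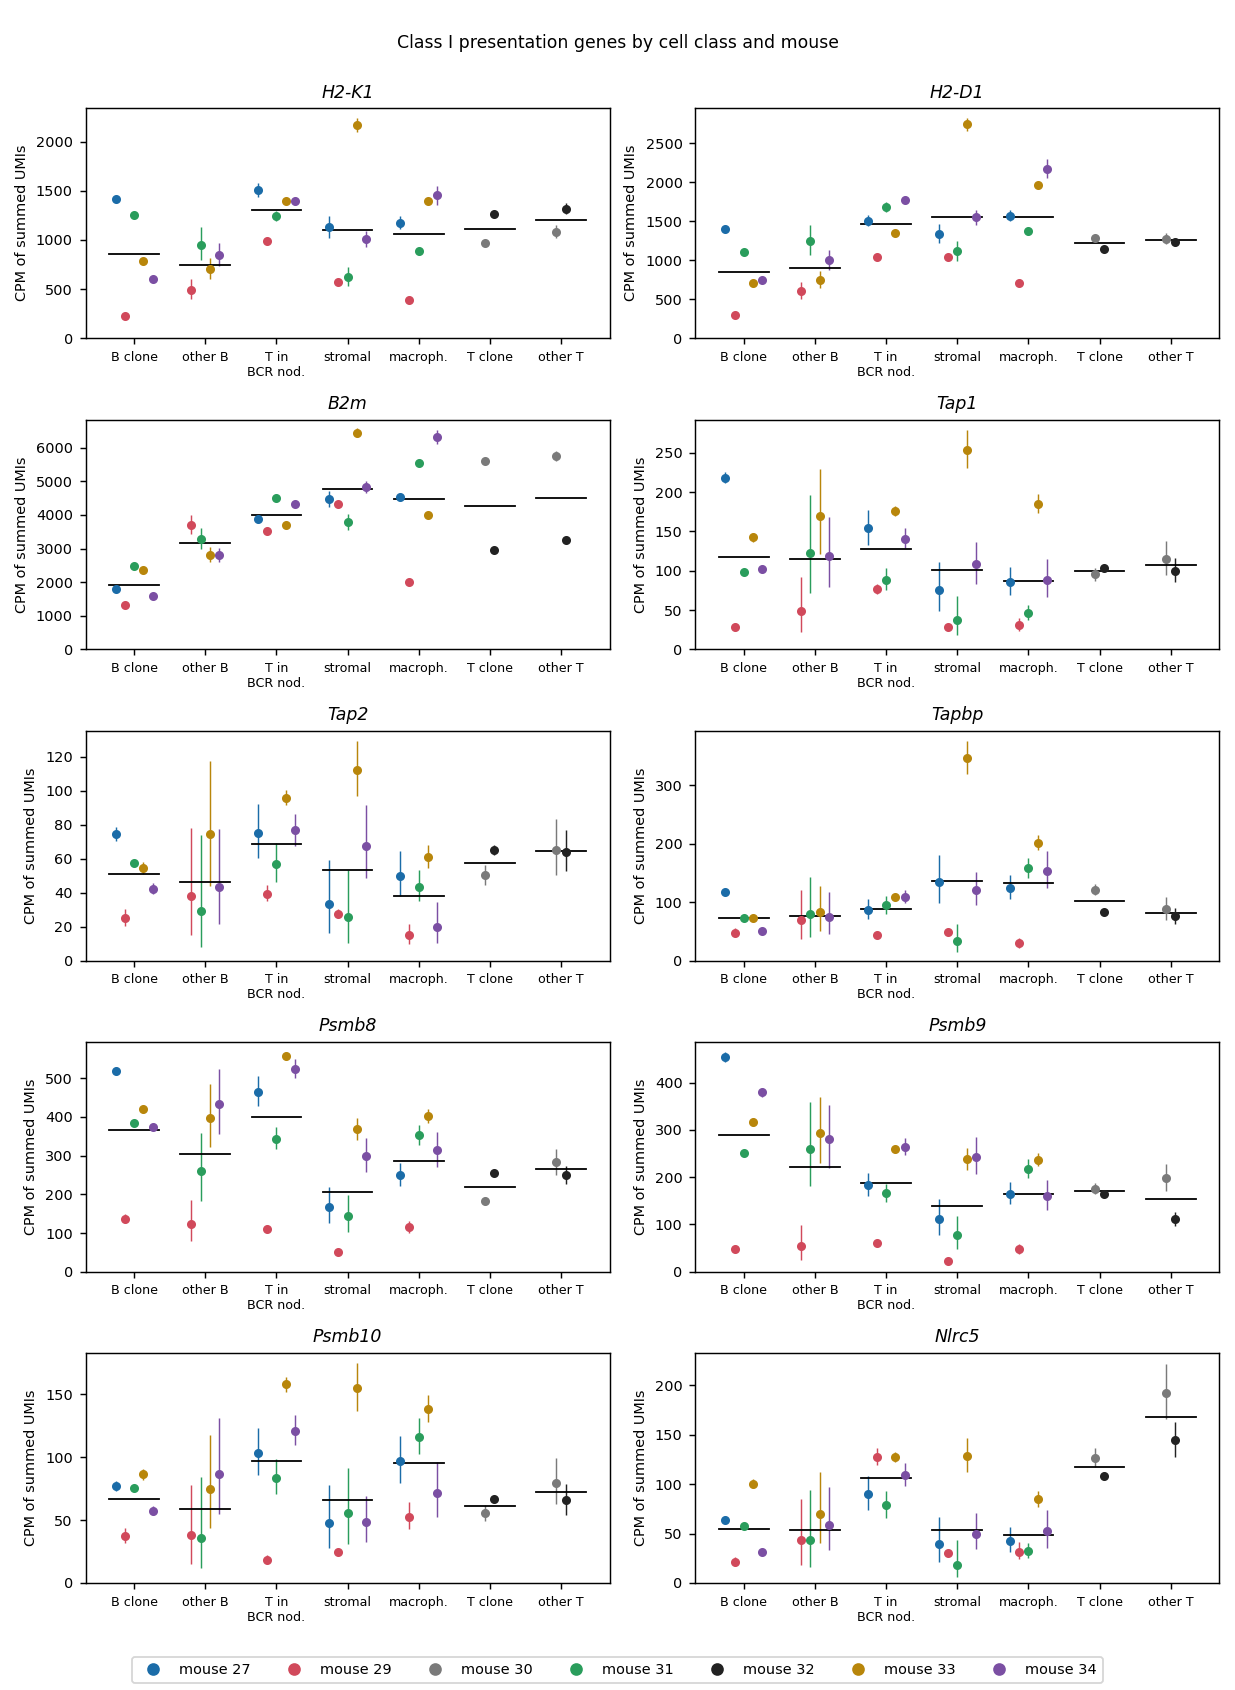
CPM of the 10 genes (vertical axes from 0, a scale of its own in each panel) in B clones, other BCR-called B-like cells, non-clonal T-like cells, stromal cells and macrophage-like cells of BCR nodules, and in T clones and other TCR-called T-like cells of TCR nodules. Points are mice, vertical lines 95% Poisson intervals of the summed counts and horizontal lines means over mice; B2m lay between 1325 and 2491 CPM in B clones and between 3535 and 4504 CPM in T-like cells of the same nodules.

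The first comparison set B clones against non-clonal T-like cells of the same nodule. It sets B cells against T cells, so lineage and clonality cannot be told apart in it. B2m and H2-D1 were lower in the B clones, and no member was higher. Of the 10 members 2 were called, both lower, against 28.6% of all 15088 genes tested (13.5% higher and 15.1% lower; edgeR's quasi-likelihood test with Benjamini-Hochberg adjustment over all genes, mouse as a block, 5 mice). The median log2 fold change was -0.31 over the members and 0.06 over all genes.

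The B clones of mice 27, 29, 31, 33 and 34 held 1810, 1325, 2491, 2371 and 1594 CPM of B2m. In the T-like cells of the same mice it was 3872, 3535, 4504, 3696 and 4322 CPM. The clone was lower in 5 of 5 mice. The means were 1918 ± 501 CPM and 3986 ± 413 CPM (SD, n = 5 mice each), and the log2 fold change was -1.0 ± 0.24 (SE), with an edgeR adjusted p of 0.0205. Leaving out mouse 27 or mouse 34 raised that adjusted p to 0.0544 or 0.0716 at log2 fold changes of -0.93 and -0.93.

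H2-D1 was 1404, 293, 1103, 703 and 743 CPM in the B clones of mice 27, 29, 31, 33 and 34. The T-like cells held 1505, 1037, 1687, 1350 and 1776 CPM in the same order. The clone was lower in 5 of 5 mice, although the groups overlapped through mouse 27, whose clone differed little from its T-like cells, and mouse 29, whose T-like cells were lowest. The log2 fold change was -0.85 ± 0.27 (SE), with an edgeR adjusted p of 0.0497, just under the threshold of 0.05. It passed the threshold in 4 of 13 alternatives and in none of the 5 that left out a mouse (adjusted p 0.0538 to 0.136).

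H2-K1 was 1413, 221, 1258, 782 and 601 CPM in the same 5 B clones. The T-like cells ranged from 990 to 1507 CPM. The clones of mice 27 and 31 lay within that range and the other 3 below it, and the difference was not called (log2 fold change -0.76 ± 0.35, SE, edgeR adjusted p 0.137). Nlrc5 was 64.0, 21.5, 57.5, 100.4 and 31.5 CPM in the clones of mice 27, 29, 31, 33 and 34, against 78.5 to 128 CPM in their T-like cells. The clone held less in 5 of 5 mice, but the difference was not called (log2 fold change -1.02 ± 0.38, SE, edgeR adjusted p 0.0806). DESeq2 (adjusted p 0.0280) and cells thinned to 1000 UMIs (adjusted p 0.0426) put Nlrc5 past the threshold.

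The immunoproteasome and transporter genes were not called in this comparison. The log2 fold change was 0.03 for Psmb8, 0.57 for Psmb9, -0.24 for Psmb10, -0.21 for Tap1, -0.38 for Tap2 and -0.21 for Tapbp, with edgeR adjusted p-values of 0.106 to 0.920. Psmb9 was higher in the clone than in T-like cells in 4 of 5 mice, the exception being mouse 29 (48.2 against 60.4 CPM), and without that mouse its adjusted p was 0.0404 (log2 fold change 0.77). The interval for Psmb8, -0.42 to 0.48 on the log2 scale, was the narrowest among the 10 members.

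**Figure D2:**
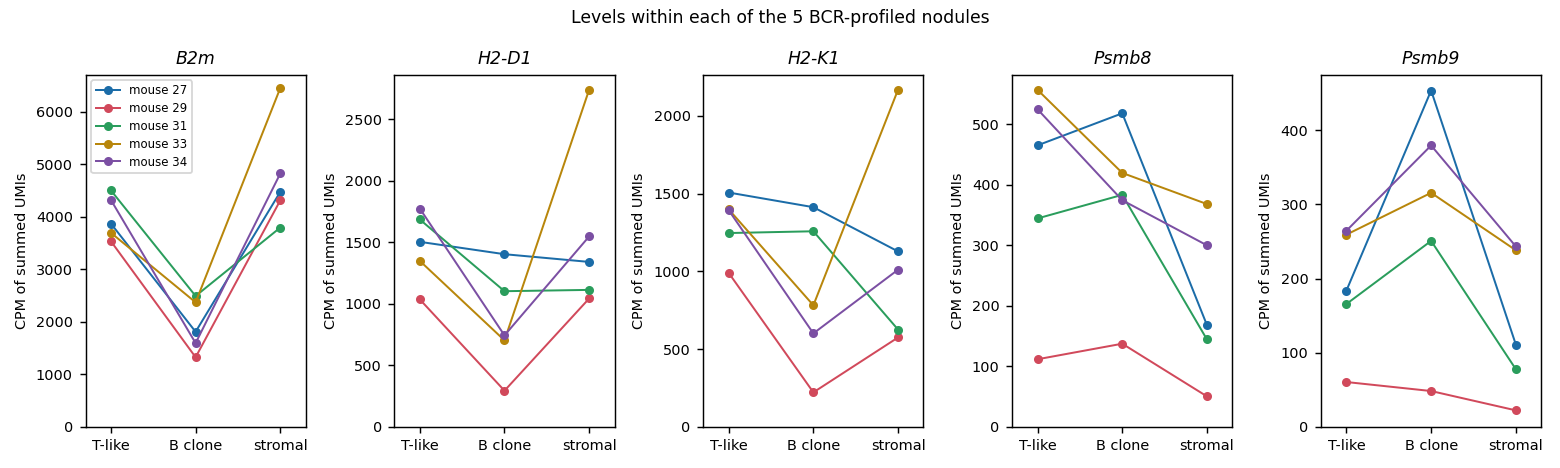
CPM of 5 members (vertical axes from 0) in non-clonal T-like cells, B clone cells and stromal cells of each BCR nodule, with a line joining the classes of 1 mouse. B2m was lowest in the clone in all 5 mice, whereas Psmb8 and Psmb9 were lowest in stromal cells in all 5 mice.

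Against stromal cells of the same nodule, B clones held less B2m and more Psmb8 and Psmb9. These 3 of 10 members were called, against 41.6% of 15837 genes (20.1% higher and 21.5% lower in the clone, the same test, 5 mice). The median log2 fold change was 0.27 over the members and 0.16 over all genes, and edgeR's RLE factors in place of TMM moved the median of all genes to -0.06 and that of the members to 0.03, so fold changes here are best read against those medians. Of the genes called, 3176 were higher and 3406 lower in the clone, and with DESeq2 2699 and 4428.

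Stromal cells of mice 27, 29, 31, 33 and 34 held 4476, 4315, 3796, 6455 and 4826 CPM of B2m. All 5 values lay above the 1325 to 2491 CPM of the clones. The log2 fold change was -1.09 ± 0.30 (SE), with an edgeR adjusted p of 0.0212, and leaving out mouse 27, 29 or 33 brought that p to 0.0653, 0.0579 or 0.0503. Without mouse 27, whose stromal cells can be those of the recipient, the log2 fold change was -1.11 for B2m, 1.07 for Psmb8 (adjusted p 0.0453) and 1.17 for Psmb9 (adjusted p 0.0335).

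Psmb8, the immunoproteasome subunit with chymotrypsin-like activity, was 518, 137, 383, 419 and 374 CPM in the clones of mice 27, 29, 31, 33 and 34. In stromal cells it was 168, 50.2, 144, 368 and 300 CPM. The clone was higher in 5 of 5 mice, by 1.14 to 3.08 times, and the groups overlapped through mouse 29. The fitted log2 fold change was 1.23 ± 0.29 (SE), with an edgeR adjusted p of 0.0113.

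Psmb9 was 454, 48.2, 251, 316 and 380 CPM in the clones of mice 27, 29, 31, 33 and 34, and 111, 22.1, 77.7, 238 and 243 CPM in their stromal cells. The clone was again higher in 5 of 5 mice, by 1.33 to 4.09 times, with overlap through mouse 29. The fitted log2 fold change was 1.39 ± 0.31 (SE), with an edgeR adjusted p of 0.00909. Both subunits were called in each fit that left out a mouse. Without mouse as a block, neither passed (adjusted p 0.135 and 0.161), and the nodules differed from each other in both classes, with mouse 29 lowest in each. Against endothelial-like cells alone the log2 fold changes were 0.84 and 0.86 and were not called (adjusted p 0.0547 and 0.104), and against fibroblast-like cells alone (3 mice) Psmb9 was called and Psmb8 was not (log2 fold change 0.87, adjusted p 0.0995).

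The remaining members were not called against stromal cells. Their log2 fold changes were -0.23 for H2-K1, -0.72 for H2-D1, 0.58 for Tap1, 0.23 for Tap2, -0.36 for Tapbp, 0.45 for Psmb10 and 0.30 for Nlrc5, with edgeR adjusted p-values of 0.193 to 0.708. H2-K1 showed how far nodules differed. Its stromal level was 1128, 575, 625.3, 2169 and 1011 CPM in the usual order of mice, and the clone was lower in 3 of 5 mice. H2-D1 was called lower in the clone by DESeq2 (log2 fold change -0.96, adjusted p 0.0447) and against fibroblast-like cells alone (-1.58, adjusted p 0.0378).

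The closest reference for a B clone, B-like cells with another called BCR, gave no called member. The comparison rested on 24 to 41 reference cells in each of 4 mice, and 0.278% of 10806 genes were called in all. Plasma cell markers summed to 15823, 2064, 3183 and 1125 CPM in the reference cells of mice 29, 31, 33 and 34. In the clones they summed to 304, 1141, 569 and 1537 CPM, so the reference was not matched in plasma cell content, least of all in mouse 29. B2m was 1325, 2491, 2371 and 1594 CPM in the clones of mice 29, 31, 33 and 34 and 3705, 3291, 2816 and 2806 CPM in the other B-like cells. The clone was lower in 4 of 4 mice. The log2 fold change of -0.72 ± 0.31 (SE) had a p of 0.0399 before and 0.401 after Benjamini-Hochberg adjustment in edgeR's quasi-likelihood test, and no alternative called it (adjusted p 0.0805 to 0.794). The reference cells lay between clone and T-like cells in mean B2m, at 3154 ± 431 CPM (SD, n = 4). H2-D1 was lower in the clone in 4 of 4 mice and H2-K1 in 2 of 4, and neither was called (log2 fold changes -0.41 and -0.25, edgeR adjusted p 0.602 and 0.808). Fold changes of the other 7 members lay between -0.34 and 0.15. The median over all genes was 0.20 with TMM and 0.04 with RLE factors, and 7 of 10 members were below 0 with TMM and all 10 with RLE factors. Without mouse 29, 4 of 10 members were below 0, with a median of 0.09 over the members and 0.16 over all genes.

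B-lineage cells of the same nodules with no receptor call, which can belong to the clone, held 1583, 1068, 2245, 2220 and 1833 CPM of B2m in mice 27, 29, 31, 33 and 34. These values were lower than those of the called clone cells in 4 of 5 mice and below all 4 values of the B-like cells with another called BCR. B-like cells of the TCR nodules, 77 in mouse 30 and 29 in mouse 32, held 2300 and 1088 CPM of B2m.

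The B clone of mouse 29 was the lowest of the 5 B clones for each of the 10 members. It held 221 CPM of H2-K1 against 601 to 1413 CPM in the other 4, 293 CPM of H2-D1 against 703 to 1404 CPM, and 28.2 CPM of Tap1 against 98.8 to 218 CPM. Other cell classes of this lung nodule were also low for most members, so a low level was not particular to its clone. Its T-like cells were the lowest of the 5 BCR nodules for each member but Nlrc5. They held 3535 CPM of B2m, 990 CPM of H2-K1, 76.7 CPM of Tap1, 112 CPM of Psmb8, 60.4 CPM of Psmb9 and 18.6 CPM of Psmb10. Its macrophage-like cells held the lowest B2m (2006 CPM), H2-D1 (711 CPM), H2-K1 (385 CPM), Tap1, Tap2, Tapbp, Psmb8, Psmb9 and Psmb10. Its stromal cells were lowest for H2-K1, H2-D1, Tap1, Psmb8, Psmb9 and Psmb10, but not for B2m, Tap2, Tapbp or Nlrc5. H2-K1 in the clone was 0.224 times that of T-like cells and 0.451 times that of other BCR-called B-like cells of the same nodule. Nlrc5 in its T-like cells was 128 CPM, the highest of the 5 BCR nodules, against 21.5 CPM in the clone, a ratio of 0.169.

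The T clones were set against T-like cells of the same nodule with another called TCR. None of the 10 members was called, against 0.215% of 11639 genes (25 genes). The number at an unadjusted p under 0.05 was 1, Nlrc5, and DESeq2 also called none. In mouse 30 the clone held 5605 CPM of B2m and its reference 5753 CPM, while mouse 32 gave 2951 and 3264 CPM. For H2-K1 the pairs of values were 970 and 1083 CPM (mouse 30), then 1262 and 1320 CPM (mouse 32). For H2-D1 they were 1292 and 1274 CPM, then 1144 and 1238 CPM. For B2m and H2-K1 each clone differed less from its reference than the mice differed from each other. The 95% intervals of the log2 fold changes were -0.63 to 0.15 for B2m, -0.72 to 0.21 for H2-K1 and -0.66 to 0.28 for H2-D1.

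The clone of mouse 30 held 126 CPM of Nlrc5 and its reference 192 CPM, and mouse 32 gave 109 and 144 CPM. It was thus lower in the clone in 2 of 2 mice, with a log2 fold change of -0.65 (edgeR p 0.0344, adjusted p 0.451). Psmb8 parted the mice, with 183 against 283 CPM in mouse 30 and 256 against 249 CPM in mouse 32. In all, 8 of 10 members had a log2 fold change below 0, with a median of -0.26 over the members and 0.03 over all genes. In the clone of mouse 32, 211 cells lay in the erythroid-like class and erythroid markers summed to 914 CPM, and with clone cells of the T-like class alone the members' median was -0.19 and none was called.

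Stromal cells of the TCR nodules were too few for a test, 6 in mouse 30 and 13 in mouse 32. B2m in them was 5546 CPM (95% Poisson interval 4397 to 6902) and 5382 CPM (4971 to 5819), which cover counting error only. These stand beside 5605 and 2951 CPM in the T clones.

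**Figure D3:**
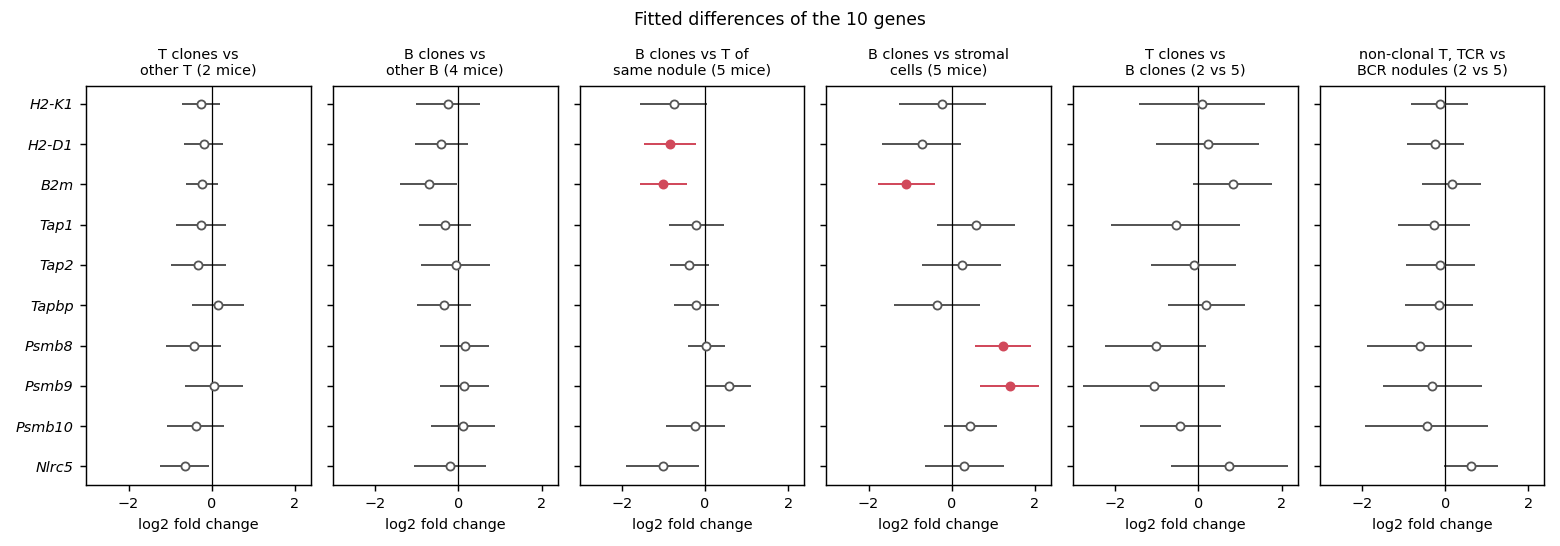
Log2 fold changes (horizontal axes) of the 10 members in the 6 comparisons that could be fitted, with 95% intervals from edgeR's quasi-likelihood fit. Filled red points have an adjusted p under 0.05 over all genes: H2-D1 and B2m in B clones against T-like cells, and B2m, Psmb8 and Psmb9 in B clones against stromal cells.

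T clones and B clones came from different mice, 2 against 5, so lineage and nodule cannot be told apart. No member was called between them, against 6.74% of 15191 genes. B2m was 2951 and 5605 CPM in T clones and 1325 to 2491 CPM in B clones (log2 fold change 0.82 ± 0.41, SE, edgeR adjusted p 0.246). Psmb8 was 183 and 256 CPM in T clones and 137 to 518 CPM in B clones, and Psmb9 was 164 and 176 CPM against 48.2 to 454 CPM. Their log2 fold changes were -1.03 and -1.06 (edgeR adjusted p 0.257 and 0.391), and both passed the threshold when mouse 29 was left out (-1.25, adjusted p 0.0494, and -1.34, adjusted p 0.0365). H2-K1 and H2-D1 differed by 0.09 and 0.22 on the log2 scale, with intervals of -1.43 to 1.60 and -1.02 to 1.47.

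Non-clonal T-like cells of TCR and BCR nodules were compared to see whether T cells differed with the kind of nodule. No member and no gene was called (0% of 10353 genes by edgeR's quasi-likelihood test, 313 at an unadjusted p under 0.05, and 6 genes by DESeq2). Nlrc5 was 144 and 192 CPM in the TCR nodules and 78.5 to 128 CPM in the BCR nodules. Its log2 fold change was 0.62 ± 0.28 (SE), with an edgeR p of 0.0560 and an adjusted p of 0.989. H2-K1 (-0.13), H2-D1 (-0.23) and B2m (0.15) had small log2 fold changes with intervals that reached -0.91 and 0.87.

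The share of cells with a UMI was compared after each cell was thinned to 1000 UMIs, since clone cells were deeper. B2m was then found in 80.0, 69.7, 89.7, 90.1 and 73.6% of clone cells of mice 27, 29, 31, 33 and 34. In non-clonal T-like cells of these mice it was found in 95.1 to 97.6%, and in stromal cells in 92.9 to 97.6%. All 5 clones lay below both ranges. Without thinning the shares were 99.4 to 100% in the B clones and 91.1 to 98.2% in T-like cells, so the order turned with depth. In erythroid-like cells the thinned share was 7.69 to 47.8% in the 4 BCR nodules with 22 to 71 such cells. Erythroid markers took up 111245 to 776962 CPM in the erythroid-like cells of these nodules, and their part in the low shares was not tested. The 3768 erythroid-like cells of mouse 32 held 4809 CPM of these markers and 2185 CPM of B2m. Thinning left out 0 to 2 cells of each B clone and 68 to 1770 T-like cells of each BCR mouse.

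At least 1 UMI of H2-K1 or H2-D1 was found in 90.4, 40.9, 88.4, 74.4 and 71.5% of thinned clone cells of mice 27, 29, 31, 33 and 34, and in 83.9 to 94.6% of their T-like cells. The clone of mouse 29 stood lowest, beside 83.9% of its own T-like cells. T clones gave 87.9 and 90.9% (mice 30 and 32), and the other T-like cells beside them 87.5 and 89.4%. Not thinned, 97.8 to 100% of B clone cells held such a UMI, mouse 29 included.

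The balance of immunoproteasome and constitutive subunits was taken as the share of the inducible gene among the UMIs of each pair. For Psmb8 and Psmb5, which occupy the same site, the share was 68.0% ± 9.83 (SD, n = 5) in B clones, 79.9% ± 3.13 in T-like cells and 68.3% ± 11.4 in stromal cells of the BCR nodules. For Psmb9 and Psmb6 it was 62.7% ± 17.1, 64.2% ± 4.05 and 52.7% ± 18.7. For Psmb10 and Psmb7 it was 33.6% ± 9.57, 51.5% ± 16.0 and 39.2% ± 21.3. In B-like cells with another called BCR (n = 4) the shares of the 3 pairs were 74.1% ± 7.40, 67.0% ± 16.7 and 34.3% ± 12.8. The last rested on 21 to 70 UMIs of the Psmb10 pair per mouse, and its mean lay near that of the B clones. Against T-like cells, lineage and clonality cannot be told apart. Within mice, the clone was below its own T-like cells in 5 of 5 mice for the Psmb8 pair, by 11.9 ± 10.4 percentage points (SD), and for the Psmb10 pair, by 17.9 ± 8.50 points, and it was higher in 4 of 5 mice for the Psmb9 pair. Against its own stromal cells the clone was higher in 5 of 5 mice for the Psmb9 pair, by 9.97 ± 8.42 points, in 2 of 5 for the Psmb8 pair and in 1 of 5 for the Psmb10 pair. A two-sided exact permutation test within mice gave p = 0.0625 for each of the 3 differences with a single direction, the smallest p that 5 mice allow (0.125 after Benjamini-Hochberg adjustment over 6 comparisons), and 0.562 to 1 for the other 3. The lower value in B clones than in T-like cells for the Psmb10 pair stood beside a Psmb7 level of 132 CPM in B clones and 79.7 CPM in T-like cells, which was called (log2 fold change 0.87, edgeR adjusted p 0.0209). Against stromal cells, Psmb5 (log2 fold change 1.27) and Psmb6 (0.80) were called higher in the clone as Psmb8 and Psmb9 were (edgeR adjusted p 0.00508 and 0.0224).

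**Figure D4:**
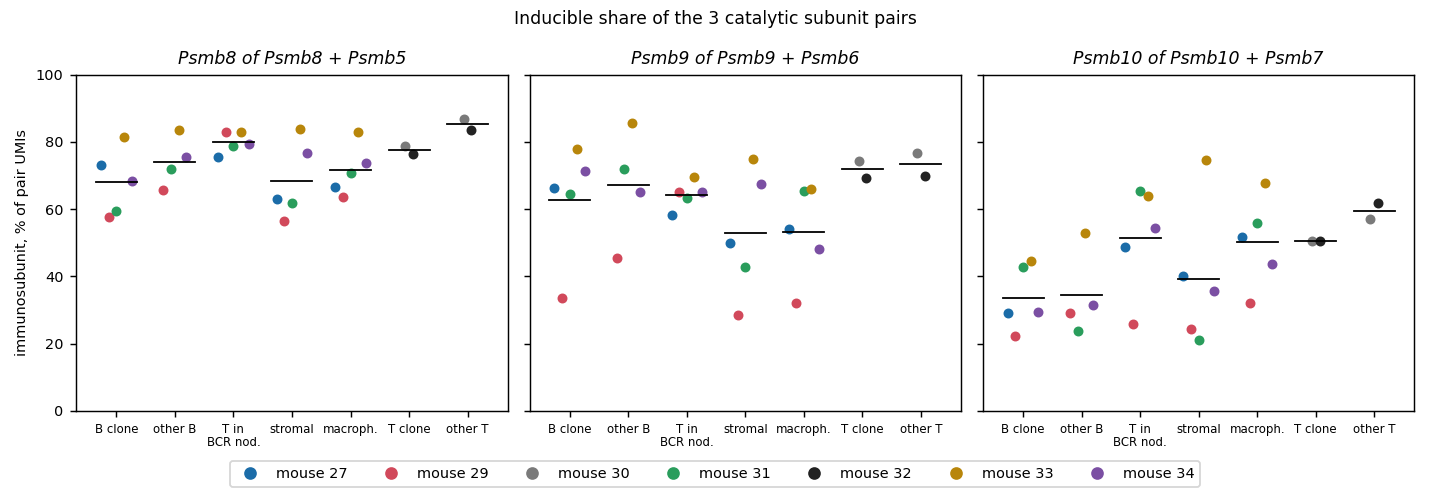
Share of the inducible subunit among the UMIs of each catalytic pair (vertical axis, percent) by cell class, with points for mice and lines for means. For the Psmb10 pair B clones averaged 33.6%, B-like cells with another called BCR 34.3% (4 mice) and T-like cells of the BCR nodules 51.5%.

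Other genes of the pathway were read from lists. Of all genes, 13.5% were called higher and 15.1% lower in B clones against T-like cells. Against stromal cells these shares were 20.1% and 21.5%, and between T and B clones 6.74% were called in either direction. Small counts from a list can lie near these shares. Here too, lineage and clonality cannot be told apart against T-like cells. Against T-like cells, 3 of 11 tested class Ib heavy chain genes were lower in B clones and none higher. They were H2-Q4 (131 and 281 CPM, a log2 fold change of -1.21, adjusted p 0.0257), H2-Q10 (-2.28, adjusted p 0.0141) and Mr1 (-1.44, adjusted p 0.0441), which presents vitamin B metabolites, and the last 2 were below 10 CPM on average in both classes. Of 7 peptide loading and trimming genes, 3 were higher and 2 lower. The higher ones were the chaperones of the endoplasmic reticulum Calr (log2 fold change 1.22), Canx (1.26) and Pdia3 (0.70), which also fold other secreted and membrane proteins, immunoglobulins among them. The lower ones were Tapbpl (-1.44), a peptide editor related to tapasin, and the peptidase Tpp2 (-0.68). None of the 7 was called against stromal cells, where of the class Ib genes 1 of 11 was lower (Mr1).

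Of the regulators and interferon γ signalling genes, 4 of 14 were higher and 6 lower in B clones than in T-like cells, against 13.5% and 15.1% of all genes. Ifng, the cytokine that induces the pathway, averaged 2.66 CPM in B clones and 239 CPM in T-like cells. Its receptor chain Ifngr1 (76.9 against 704 CPM, log2 fold change -3.06) was lower and the other chain Ifngr2 (38.9 against 14.1 CPM, 1.76) higher. Lower were also the kinases Jak1 (-1.61) and Jak2 (-3.43) and the transcription factors Irf1 (-1.75) and Irf2 (-0.62). Higher were Irf8 (2.88), Rfx5 (0.83), a subunit of the factor that binds class I and class II promoters, and Ciita (3.42), the transactivator of class II genes. Against stromal cells 2 of 14 were higher (Irf8 and Ciita) and 5 lower, beside 20.1% and 21.5% of all genes. The lower ones had log2 fold changes of -2.79 for Irf1, -2.09 for Ifngr1, -2.03 for Jak2, -1.28 for Jak1 and -1.20 for Ifngr2. Ifngr1, Jak1, Jak2 and Irf1 were thus lower in both comparisons, which share the clone cells.

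Of the 4 proteasome activator and assembly genes, Psme3 was higher in B clones against T-like cells (log2 fold change 0.89, edgeR adjusted p 0.0343). Psme3 (1.51), Psme2 (1.11), a subunit of the PA28 activator induced by interferon γ, and the assembly factor Pomp (0.72) were higher against stromal cells. Between T and B clones Psmb7 (-1.40), Irf8 (-4.35) and Ciita (-5.91) were lower and Ifng (5.25), Jak1 (1.23) and Jak2 (3.26) higher in T clones. No listed gene was called in T clones against other T-like cells, in B clones against other B-like cells, or between the non-clonal T-like cells of both kinds of nodule.

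The members varied together to different degrees across 30 sums of a class in a mouse with at least 50 cells. On log2(CPM + 10), Pearson's r between members ran from 0.35 (Psmb10 and Nlrc5) to 0.95 (Psmb8 and Psmb9). It was 0.87 for H2-K1 and H2-D1, 0.86 for Tap1 and Psmb9, which share the stretch printed above, and 0.84 for Tap1 and Tap2, but 0.40 for B2m and Psmb9. Among 9044 other genes, H2-T22, a class Ib heavy chain, was most like H2-K1 (0.90), Tap1 (0.89) and Tap2 (0.90), and Psme2 was most like Psmb8 (0.94) and Psmb10 (0.89). The genes most like the others were Tmbim6 for H2-D1 (0.87), Eva1b for B2m (0.85), H2-T23 for Tapbp (0.87), Gemin7 for Psmb9 (0.90) and Gm12216 for Nlrc5 (0.80). The sums share libraries and are not independent.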

How the data were processed

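Nodules were dissociated and dead cells removed, and 1 RNA and 1 V(D)J library was made per mouse. Counts in the deposited RNA matrices are raw UMIs, 1 value for each gene in each cell, not normalized by the authors; the labels name GRCm38 (mm10), and the aligner is not given in the sources used here. The labels name a 5′ kit for the V(D)J libraries and the methods a 3′ kit for single-cell RNA, so the counted transcript end was not settled. The deposited V(D)J files list contigs with UMI counts, assembled with SeekSoulTools.

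Cells with at least 201 UMIs, at least 101 genes and at most 10% mitochondrial UMIs were kept. Counts were scaled to 10000 per cell, and 2000 variable genes, 30 components and 15 neighbours gave 32 Leiden clusters (resolution 1; scanpy 1.11.5, leidenalg 0.10.2, Python 3.11.15), with libraries not integrated. A cluster was named from marker lists (at least 3 markers, each in 10% of cells and at least 1.5 times the CPM + 10 of the median cluster); 6712 cells stayed unnamed. Lists covered B, plasma, T, NK, macrophage, monocyte, neutrophil, dendritic, mast or basophil, erythroid, fibroblast, endothelial, epithelial and hepatocyte markers. B and plasma markers were treated as 1 lineage, a choice made after clusters were seen, because plasma genes led the clone clusters. No doublet caller was run; cells with at least 2 UMIs of both B and T markers were left out in an alternative. A clone was taken as the cells with a receptor call that carry its most frequent heavy (or beta) chain, or the light (or alpha) chain most often paired with it.

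UMIs were summed per mouse and class (at least 20 cells) and tested with edgeR 4.0.16 (quasi-likelihood, TMM, filterByExpr, mouse as a block where classes share mice, R 4.3.3), with Benjamini-Hochberg adjustment over all genes and a threshold of 0.05. Blocks rest on classes coming from the same animal. DESeq2 1.42.0, RLE factors, no filter, no block, each mouse left out, thinned cells, receptor genes left out and other cell definitions were alternatives. Scripts were tested on simulated data. Intervals are 95% Poisson intervals, and a count of 0 allows up to 3 counts; both cover counting error only. Mice are the replicates. With mouse as a block, p-values rest on how far the difference between classes varies from mouse to mouse. Without a block they rest on the spread of levels between mice. All 10 members are named, and listed pathway genes past the threshold in a comparison, and for each member the genes most like it. From the list of regulators 1 gene is not reported here and is left out of that list's counts. Alignment used Biopython 1.88. The members and lists were chosen with earlier results of these data known.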

Additional observations from a re-analysis of the deposited data

Results flagged for a closer look

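Groups of 4 to 7 mice were searched for a mouse whose gap to its nearest neighbour is large against the range of the group (Dixon's test at 95%), over 50 pairs of a member and a cell class. Chance flags about 1 in 20 groups, and 3 values were flagged. Psmb9 in the 32 B-like cells with another called BCR of mouse 29 was 53.9 CPM, against 260 to 293 CPM in the other 3 mice. Psmb10 in stromal cells of mouse 33 was 155 CPM, against 24.3 to 55.5 CPM in the other 4 BCR mice. Nlrc5 in the same stromal cells was 129 CPM, against 18.5 to 49.97 CPM. The stromal cells of mouse 33 held 705 CPM of B cell markers, and their part in these values was not tested.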

How the results depend on the processing

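Of 749 member fold changes under alternatives, 681 kept their direction and side of the threshold. In B clones against T-like cells the 2 called members became 1 with no filter, without the mouse block (the pairing of classes by animal), with receptor genes left out or with clone cells of the B-like class alone, and 0 to 2 when a mouse was left out (0 without mouse 27 or 34). B2m was the member still called in those 4 settings (11 of 13 in all). Against stromal cells 3 became 1 without the block or with endothelial-like cells alone, and 2 to 3 when a mouse was left out. In T against B clones 0 became 0 to 2 (2 without mouse 29). The block changed no other member's call. Values that changed sign were all uncalled and the cause was not tested. Against other B-like cells these were Psmb8 -0.012, Psmb9 -0.026 and Psmb10 -0.048 with RLE factors, Psmb8 -0.0094 and Psmb10 -0.049 with DESeq2, and H2-K1 0.31, Tap1 1.39, Tap2 0.92, Tapbp 0.38 and Psmb8 -0.19 with thinned cells. They were Psmb8 -0.088 without the block against T-like cells; Tap1 -0.22, Tap2 -0.44 and Nlrc5 -0.22 against fibroblast-like and Nlrc5 -0.27 against endothelial-like cells; and Tap2 0.031 in thinned T against B clones. With 1 mouse left out, ranges that crossed 0 were, against other B-like cells, H2-K1 -0.64 to 0.11, Tap2 -0.47 to 0.14, Nlrc5 -0.54 to 0.072, Psmb8 -0.14 to 0.22, Psmb9 -0.090 to 0.26 and Psmb10 -0.28 to 0.30. Against T-like cells they were Tap1 -0.35 to 0.067 and Psmb8 -0.051 to 0.12, and against stromal cells H2-K1 -0.66 to 0.077, Tap2 -0.073 to 0.46, Tapbp -0.77 to 0.0057 and Nlrc5 -0.060 to 0.53. In T against B clones they were H2-K1 -0.19 to 0.30, Tap2 -0.39 to 0.088 and Tapbp -0.064 to 0.38, and in non-clonal T-like cells H2-K1 -0.33 to 0.049, B2m -0.25 to 0.48, Tap2 -0.23 to 0.10, Tapbp -0.28 to 0.0081 and Psmb9 -0.72 to 0.023.

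Counts over all genes moved more. T clones against other T-like cells gave 25 genes, 4 with RLE factors or without doublet-like cells, 6 thinned, 15 without receptor genes, 215 with DESeq2, 525 with no filter, and 0 without the block or with T-like clone cells alone. B clones against other B-like cells gave 30, 153 with DESeq2, 117 with no filter, 98 without mouse 31, 7 without receptor genes and 0 without the block. Against T-like cells 4308 became 2824 without the block and 2735, 2826 or 2772 without mouse 27, 31 or 34. Against stromal cells 6582 became 3724 thinned and 3903 for fibroblast-like cells. T against B clones gave 1024, 3156 with DESeq2, 1878 with clone cells of the named class, and 179 to 1472 with a mouse left out. Not run, for too few mice or cells, were T clones without either mouse and a reference of B-like cells by Ighm and Ighd; T clones against stromal cells had no fit. Non-clonal T-like cells gave 0, 6 with DESeq2, 4 without mouse 29 and 1 without mouse 30. Shares of clone cells with a UMI were lower at 500 than at 1000 UMIs for all 10 members. The B-like reference held 24 to 41 cells per mouse.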
